A study of Mus musculus with 5 samples.

Results

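The genes that make bile acids in hepatocytes, and the receptors that sense bile acids and restrain their synthesis, were followed across 5 mouse liver libraries. The set held 10 genes of the 31053 in each library's matrix: Cyp7a1, Cyp8b1, Cyp27a1, Cyp7b1, Baat, Slc27a5, Nr0b2, Nr1h4, Fgfr4 and Klb. They were taken by name, and all 10 were found by symbol and gene identifier. Levels were read in hepatocytes, defined as barcodes of at least 5000 unique molecular identifiers (UMIs, each marking 1 captured transcript), with 10% to 30% of UMIs from mitochondrial genes and at least 1% from Alb, Apoa1 and Ttr together. These made 5691 cells in all. The libraries were droplet-based single-cell RNA sequencing (10x v3 chemistry) of cells from perfused livers of C57BL/6J mice, 1 library per group. One group was of postnatal day 14 (P14). The other 4 were of adults aged 8 weeks: a control, and animals taken 24 h, 48 h or 96 h after partial hepatectomy (PHx), the removal of most of the liver, after which the remnant regrows. The labels name no transgene or other allele, and do not say how many animals a library holds or of which sex. Sex-chromosome genes, given with Cyp7b1 below, showed a female pattern at P14 and a male pattern in the adults. A treatment field of the adult control speaks of surgery, while its title, source and age call it a control, and it was used as the control. A code in the descriptions ends in 2 for the adult control and in 1 for the other 4 libraries, so what it marks cannot be told apart from being the control.

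Hepatocytes turn cholesterol into bile acids by a pair of routes. The classic route starts with Cyp7a1, the rate-limiting 7-alpha hydroxylase, and passes through Cyp8b1, whose 12-alpha hydroxylation directs the product to cholic acid. The alternative route starts with the mitochondrial side-chain hydroxylase Cyp27a1 and uses Cyp7b1 for the 7-alpha step. Slc27a5 activates bile acids with coenzyme A, and Baat joins them to taurine or glycine. Bile acids feed back through the nuclear receptor Fxr (gene Nr1h4), which raises the repressor Shp (gene Nr0b2) in liver and the hormone Fgf15 in the gut. Fgf15 reaches hepatocytes through the receptor Fgfr4 and its partner beta-Klotho (gene Klb), and this signal lowers Cyp7a1.

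The adult control gave 925 hepatocytes, the 24 h library 1170, the 48 h library 719, the 96 h library 771 and P14 2106. Total UMIs per library ran from 80927744 to 136110607, and the median hepatocyte held between 18527 UMIs (adult control) and 38922.5 UMIs (P14). Just inside the depth limit, 7 to 27 hepatocytes per library had 5000 to 6000 UMIs. Just outside the mitochondrial limit, 79 to 230 barcodes per library met the other criteria with 30% to 32% mitochondrial UMIs. From 30% to 50% there were 481, 378, 319, 1562 and 393 in the adult control, at 24 h, 48 h, 96 h and P14. Near the marker limit, 182, 494, 96, 3 and 0 hepatocytes had under 2% of UMIs from Alb, Apoa1 and Ttr. The gate thus cut the libraries unequally. All 8 hepatocyte markers, of which Alb, Apoa1 and Ttr also set the gate, were detected in every library, and together they took 5.48%, 4.54%, 4.92%, 9.37% and 15.7% of UMIs in the adult control, at 24 h, 48 h, 96 h and P14. Hepatocyte barcodes were not shared between libraries, except 2 between the adult control and P14 and 1 between 48 h and P14. Free RNA differed widely: the median empty droplet held 1330, 665, 287, 775 and 460 UMIs in the same order. Levels in those droplets, drawn for every member in the plot of levels, and shares of T or NK cell barcodes with a UMI are given as the background. A level in empty droplets is a share of their own few UMIs. It is not the amount that free RNA adds to a hepatocyte. Shares of hepatocytes with a UMI are for cells thinned to 5000 UMIs; T or NK barcodes were not thinned and had median depths of 4658 to 7853.5 UMIs, so the paired shares are not at 1 depth. Levels are in CPM, the UMIs of a gene per 1000000 UMIs of all genes but the 13 mitochondrial ones, summed over the hepatocytes of a library. A count of 0 allows a level of up to 0.0465 CPM at P14 and 0.144 to 0.225 CPM in the adults (3 counts). Brackets hold 95% intervals, which cover counting error only. With 1 library per group the spread between animals could not be measured, so no difference below was tested.

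By GENCODE M21 on GRCm38, Cyp7a1 lies at chr4:6265612-6275633 (minus strand), Cyp8b1 at chr9:121914356-121916305 (minus), Cyp27a1 at chr1:74713574-74737892 (plus) and Cyp7b1 at chr3:18071950-18243338 (minus). Baat lies at chr4:49489422-49506557 (minus), Slc27a5 at chr7:12988346-12998192 (minus), Nr0b2 at chr4:133553376-133556536 (plus) and Nr1h4 at chr10:89454234-89533585 (minus). Fgfr4 lies at chr13:55152640-55168759 (plus) and Klb at chr5:65348314-65384007 (plus). All 10 are protein-coding, and none overlaps another annotated gene. The 250 bases before the start were read for the 6 members with an entry in the RefSeq promoter table (GRCm38.p6): Cyp8b1, Cyp27a1, Nr0b2, Nr1h4, Fgfr4 and Klb. Motifs were searched on both strands: TCAAGGNCA for Lrh-1, CAAAGTCCA for Hnf4a, TTANNTAA for the D-box of Dbp and its relatives, TAGGTCA for Ror and Rev-erb factors, and the IR-1 element bound by Fxr. Cyp8b1 is shown because it was the member with an entry whose level moved most within 96 h of surgery, and Nr0b2 because its level hardly moved among the adults. Capitals mark the Hnf4a match, 67 to 59 bases before the start of Cyp8b1, in the window chr9:121916306-121916555 (minus strand). The window of Nr0b2 is chr4:133553126-133553375 (plus strand) and holds no match to the letters searched.
Cyp8b1: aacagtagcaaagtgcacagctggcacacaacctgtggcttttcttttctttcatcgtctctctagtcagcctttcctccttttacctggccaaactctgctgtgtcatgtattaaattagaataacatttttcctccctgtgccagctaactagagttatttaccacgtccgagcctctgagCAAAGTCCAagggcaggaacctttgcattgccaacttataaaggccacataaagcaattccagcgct
Nr0b2: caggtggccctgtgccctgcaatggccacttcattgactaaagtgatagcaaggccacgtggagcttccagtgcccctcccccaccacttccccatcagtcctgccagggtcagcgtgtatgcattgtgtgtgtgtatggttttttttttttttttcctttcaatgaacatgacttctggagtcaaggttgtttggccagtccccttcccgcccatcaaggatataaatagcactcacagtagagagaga
Of 32851 promoters of the same length, 126 (0.384%) held the Hnf4a letters. Starts are those of the RefSeq table, which differ from the GENCODE gene ends except for Cyp8b1 and Nr0b2. For Nr1h4 the window is chr10:89506659-89506908, inside the GENCODE gene, before an internal start. In that window Nr1h4 had a D-box match (TTATCTAA) 131 to 124 bases before the start, and Klb had one (TTATTTAA) 230 to 223 bases before, where 5.43% of all promoters held such a match. Lrh-1 letters were in 1.39% of all promoters, Ror or Rev-erb letters in 2.23% and IR-1 in 0.00609%, and in none of the 6 members' windows. The Lrh-1 search fixed a T as the first letter. The Cyp8b1 window holds CCAAGGGCA, which differs from the searched letters at that base only and overlaps the Hnf4a match. The Nr0b2 window holds GCAAGGCCA, which also differs at that base only, so such a stretch does not set the windows apart. How many promoters hold such variants was not counted. A match is a stretch of letters, not a shown binding site.

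After surgery the enzymes parted ways. Cyp7a1 stood 8.86-fold above the adult control at 48 h and 7.68-fold above it at 96 h, while Cyp8b1, Cyp7b1 and Slc27a5 stood more than 2-fold below it at 24 h and 48 h. The receptors and the repressor kept within 2-fold of the control at all 3 times. At P14, Cyp7a1 and Nr0b2 were more than 2-fold above the adult control, and Cyp27a1, Baat and Cyp7b1 more than 2-fold below it. A gene was called here when log2((CPM + 1)/(CPM + 1)) reached 1 in size, which is 2-fold. The same rule was run over all genes with 5 CPM or more in 1 or both libraries as the background, and all 10 members met that minimum in each comparison.

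At 24 h over the adult control, 0 members were called higher, against 8.51% of all genes, and 4 were called lower (Cyp8b1, Cyp27a1, Cyp7b1 and Slc27a5), against 7.13%. At 48 h, 1 member was higher (Cyp7a1), against 8.3% of all genes, and 3 were lower (Cyp8b1, Cyp7b1 and Slc27a5), against 7.63%. At 96 h, 1 was higher (Cyp7a1), against 4.07%, and 1 was lower (Cyp7b1), against 1.88%. The P14 library had 2 higher (Cyp7a1 and Nr0b2), against 7.89%, and 3 lower (Cyp27a1, Cyp7b1 and Baat), against 13.8%. Between the times after surgery, 48 h over 24 h gave 1 higher (Cyp7a1), against 1.78%, and 0 lower, against 1.76%. From 48 h to 96 h there was 1 higher (Cyp8b1), against 4.38%, and 0 lower, against 4.24%. The median log2 ratio of the 10 members over the adult control was −0.53 at 24 h, −0.55 at 48 h, 0.04 at 96 h and −0.16 at P14. Over all genes it was −0.00086, −0.08, 0.04 and −0.26. The members did not move as a group: among all genes they ran from the 0.786 percentile (Cyp8b1) to the 87.6 percentile (Cyp7a1) at 24 h, from 0.675 (Cyp8b1) to 98.7 (Cyp7a1) at 48 h, and from 0.360 (Cyp7b1) to 99.8 (Cyp7a1) at 96 h. These comparisons share the adult control library. Scaling by TMM factors would shift each P14 ratio up by 0.29 and those of the other libraries by less than 0.09; at P14, Klb would then be called (1.07), 11.9% of all genes would be higher and 8.59% lower, and Nr1h4 and Fgfr4 would stand at 0.22 and 0.01 instead of −0.06 and −0.26. The nearest values on either side of the threshold were Cyp27a1 at 24 h, with a log2 ratio of −1.01, and Baat at 48 h, with −0.996.

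**Figure D1:**
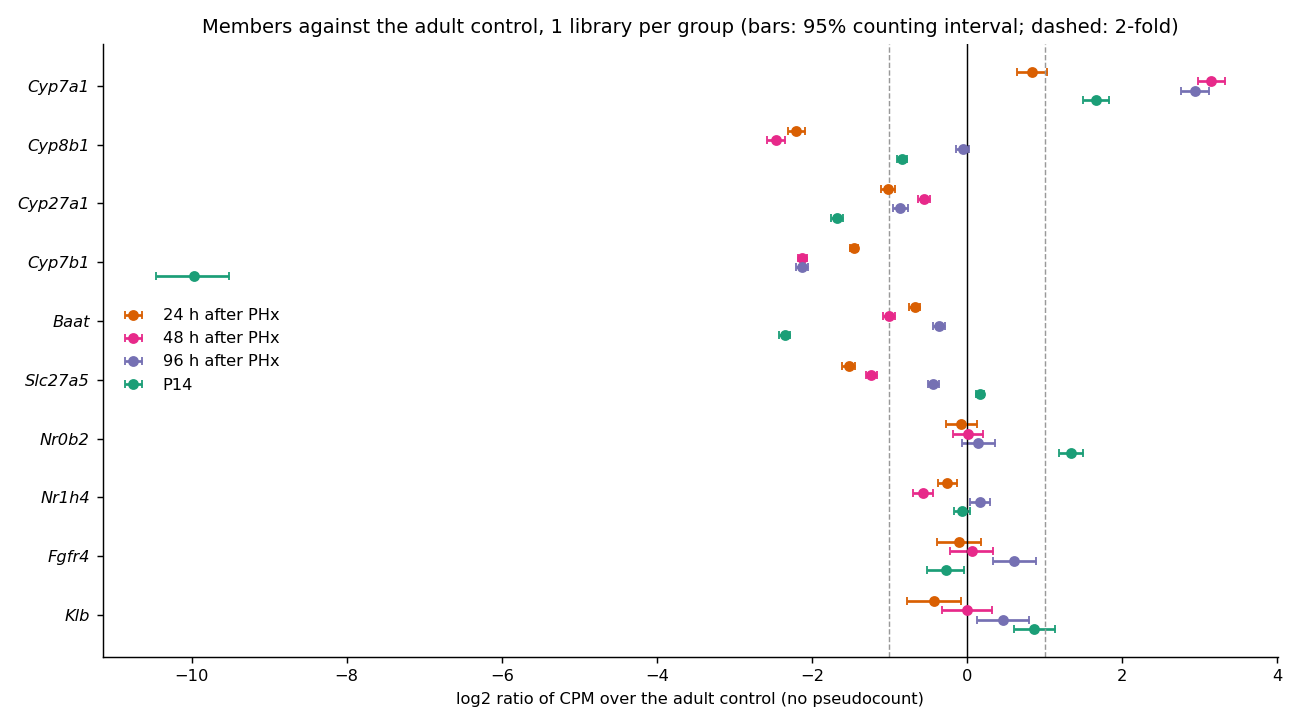
Log2 ratio of CPM in hepatocytes over the adult control, without a pseudocount, for the 10 members (rows) at 24 h, 48 h and 96 h after PHx and at P14 (colours), 1 library per group. Bars are 95% counting intervals and dashed lines mark 2-fold; Cyp7a1 sits far to the right at 48 h and 96 h, Cyp8b1 left of the line at 24 h and 48 h only, and Cyp7b1 at P14 far to the left.

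Cyp7a1, the entry enzyme of the classic route, was lowest in the adult control, at 22.2 CPM (19.8 to 24.9; 296 UMIs). It stood at 39.7 CPM (36.9 to 42.6; 774 UMIs) at 24 h, 197 CPM (191 to 203; 4104 UMIs) at 48 h and 171 CPM (164 to 178; 2293 UMIs) at 96 h. P14 lay between the early and late times, at 70.2 CPM (68.2 to 72.3; 4536 UMIs). The order was 48 h, 96 h, P14, 24 h and adult control, and no 2 neighbours had overlapping intervals. Over the adult control this made 1.78-fold (1.56 to 2.05) at 24 h, 8.86-fold (7.87 to 10.0) at 48 h, 7.68-fold (6.80 to 8.69) at 96 h and 3.16-fold (2.81 to 3.57) at P14. The step from 24 h to 48 h was 4.97-fold (4.599 to 5.37), which put Cyp7a1 at the 99.8 percentile of all genes in that comparison.

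More cells held the transcript as well. With every cell thinned to 5000 UMIs, a Cyp7a1 UMI was found in 40.2% of hepatocytes at 48 h, 33.5% at 96 h, 21.1% at P14, 13.8% at 24 h and 5.51% in the adult control. Without thinning the shares were 73.7%, 54.9%, 55.7%, 30.1% and 16.5%. T or NK barcodes, which should lack the gene, had shares of 1.52%, 2.86%, 6.25%, 0% (0 of 256, which allows up to 1.17%) and 1.80% in the same order. The richest single cell held 115 UMIs at 48 h and 9 in the adult control. Empty droplets carried Cyp7a1 at 48.7 CPM at 48 h, 44.2 at 96 h, 30.01 at P14, 16.4 in the adult control and 10.2 at 24 h, below the hepatocytes of the same library each time. In those droplets the log2 ratio over the adult control was −0.63 at 24 h, 1.51 at 48 h, 1.38 at 96 h and 0.83 at P14, so the 24 h difference had the other direction there and the P14 call was lost. Among hepatocytes with at least 3% of UMIs from Alb, Apoa1 and Ttr, the log2 ratios of Cyp7a1 were 1.499, 3.89, 3.85 and 2.68 in the order of time, P14 last. That gate kept unequal parts of the libraries: 410 cells in the adult control, and 144, 226, 739 and 2106 in the same order.

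**Figure D2:**
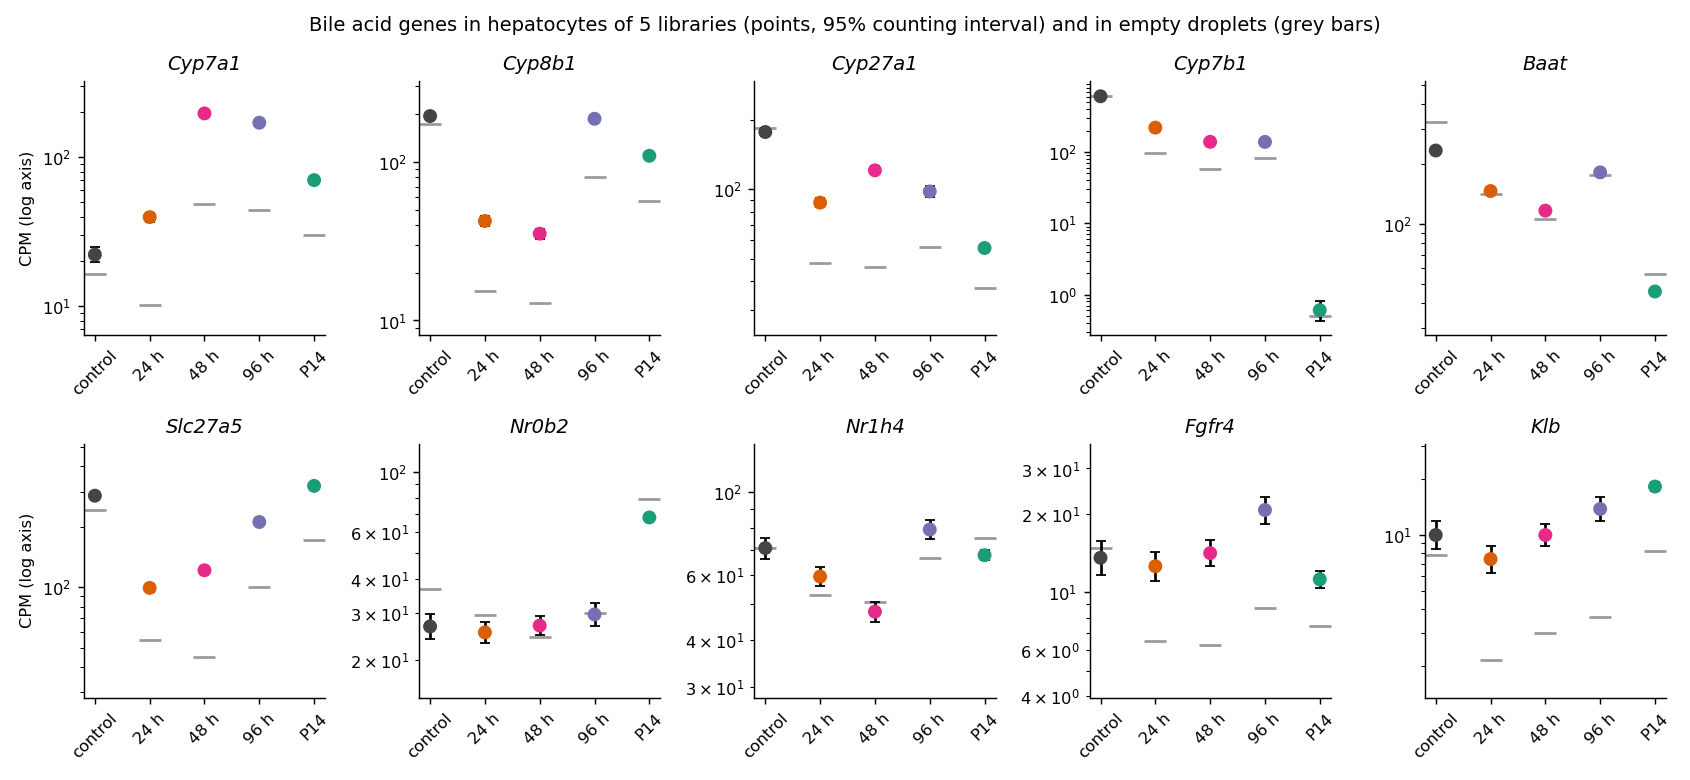
CPM (log axis, own scale per panel) of each member in the hepatocytes of the 5 libraries, as points with 95% counting intervals, and in the empty droplets of the same library, as grey bars. Cyp7a1 is highest at 48 h and 96 h, Cyp8b1 dips at 24 h and 48 h, Cyp7b1 is near the bottom of its panel at P14, and the adult points of Nr0b2 lie at one height.

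Cyp8b1, the 12-alpha hydroxylase of the same route, took the opposite course at first. It stood at 195 CPM (187 to 202; 2595 UMIs) in the adult control, 42.4 CPM (39.6 to 45.4; 828 UMIs) at 24 h and 35.3 CPM (32.8 to 37.9; 735 UMIs) at 48 h. At 96 h it was back at 187 CPM (180 to 195; 2517 UMIs), and P14 had 109 CPM (107 to 112; 7063 UMIs). Intervals of the adult control and 96 h overlapped, and those of no other neighbours in the order did. Relative to the adult control it was 4.59-fold lower (4.25 to 4.97) at 24 h, 5.52-fold lower (5.09 to 6.00) at 48 h and 1.78-fold lower (1.70 to 1.86) at P14. From 48 h to 96 h it was 5.31-fold higher (4.89 to 5.77). The share of hepatocytes with a UMI at 5000 UMIs was 50.2%, 14.1%, 12.7%, 47.5% and 33.8% in the adult control, at 24 h, 48 h, 96 h and P14. The T or NK shares were 20.9%, 2.34%, 0.381%, 4.76% and 3.75%, so free Cyp8b1 RNA was most widespread in the adult control, where empty droplets held it at 174 CPM. Empty droplets held 15.3, 12.9 and 80.5 CPM at 24 h, 48 h and 96 h. Their level was thus higher at 96 h than at 48 h too, but short of the control, with a log2 ratio of −1.10, against −0.06 in hepatocytes.

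Set against each other within a library, where no scaling enters, Cyp7a1 made up 10.2% (9.16% to 11.4%) of the summed UMIs of Cyp7a1 and Cyp8b1 in the adult control. It made up 48.3% (45.8–50.8%) of the pair at 24 h, 84.8% (83.8–85.8%) at 48 h, 47.7% (46.3–49.1%) at 96 h and 39.1% (38.2–40.002%) at P14. The balance of the pair thus differed most from the control at 48 h, and the intervals of 24 h and 96 h overlapped although both genes were at other levels. The shares compare a pair across libraries and not the amounts of a pair of transcripts, which the capture of each may affect.

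**Figure D3:**
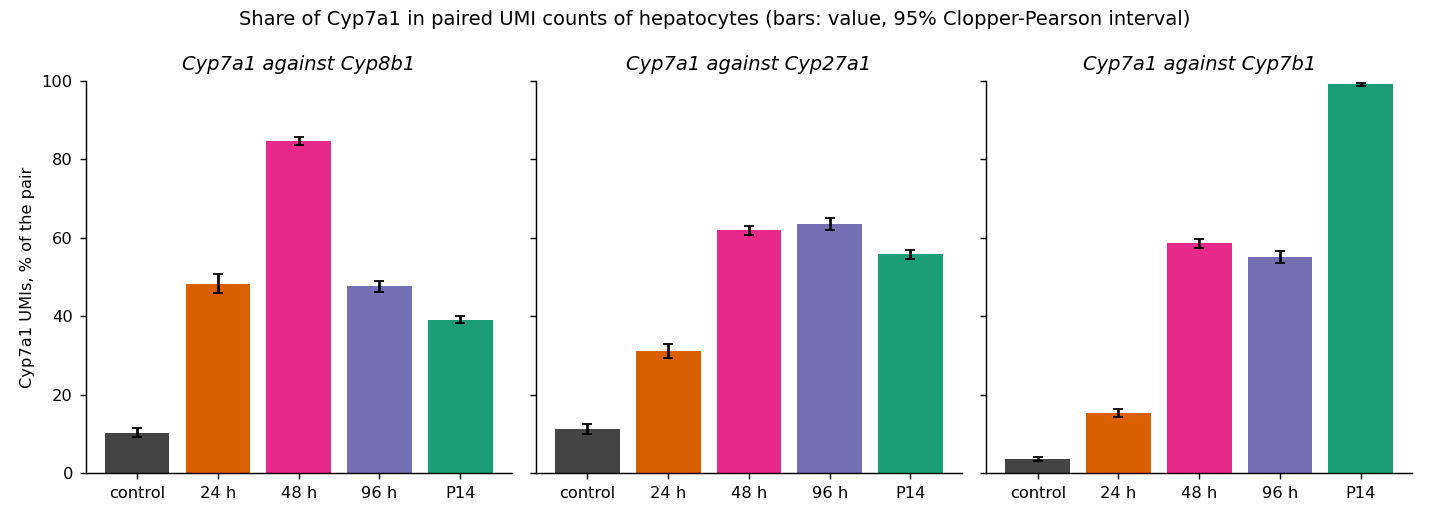
Share of Cyp7a1 in the summed UMIs of Cyp7a1 with Cyp8b1, with Cyp27a1 and with Cyp7b1 (panels), in percent, per library, with 95% Clopper-Pearson intervals. The adult control has the lowest share in each panel; 48 h stands above the other libraries against Cyp8b1, and P14 against Cyp7b1.

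The enzymes of the alternative route were highest in the adult control. Cyp27a1 stood there at 178 CPM (170 to 185; 2365 UMIs), against 87.6 CPM (83.5 to 91.9; 1710 UMIs) at 24 h, 121 CPM (116 to 126; 2522 UMIs) at 48 h, 98.0 CPM (92.8 to 103; 1317 UMIs) at 96 h and 55.7 CPM (53.9 to 57.5; 3594 UMIs) at P14. All 5 intervals were apart. It was 2.03-fold lower (1.90 to 2.16) at 24 h, 1.47-fold lower (1.39 to 1.55) at 48 h, 1.81-fold lower (1.69 to 1.94) at 96 h and 3.19-fold lower (3.03 to 3.36) at P14. The call at 24 h lies at the threshold and was lost in 7 of the 15 other settings tried. Cyp27a1 was held by 47.4% of thinned hepatocytes and 23.4% of unthinned T or NK barcodes in the adult control, against 18.1% to 36.3% and 1.52% to 5.08% in the other libraries. Its hepatocyte level was 0.965 times that of empty droplets in the adult control and 1.4967 to 2.62 times in the other libraries. In empty droplets the log2 ratios over the control were −1.92, −1.97, −1.69 and −2.28 at 24 h, 48 h, 96 h and P14, all past 2-fold, against −1.01, −0.55, −0.85 and −1.66 in hepatocytes. Against Cyp27a1, the share of Cyp7a1 in the pair went from 11.1% in the adult control to 31.2%, 61.9% and 63.5% at 24 h, 48 h and 96 h, and was 55.8% at P14.

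Cyp7b1, the 7-alpha hydroxylase of that route, stood at 605 CPM (592 to 618; 8055 UMIs) in the adult control, 220 CPM (213 to 226; 4287 UMIs) at 24 h, 139 CPM (134 to 144; 2893 UMIs) at 48 h and 139 CPM (132 to 145; 1862 UMIs) at 96 h. The last pair overlapped. It was 2.75-fold lower (2.65 to 2.86) than the control at 24 h, 4.36-fold lower (4.17 to 4.55) at 48 h and 4.37-fold lower (4.15 to 4.59) at 96 h, and so, unlike Cyp8b1, was not back near the control level by 96 h. Positive hepatocytes at 5000 UMIs made up 89.1%, 56.1%, 41.9% and 39.3% in these 4 libraries, beside unthinned T or NK shares of 56.6%, 4.69%, 2.10% and 7.14%. The P14 library held 39 Cyp7b1 UMIs in 2106 hepatocytes, or 0.604 CPM (0.430 to 0.826), which was 1002-fold lower (732 to 1410). Empty droplets of P14 had 0.497 CPM (0.227 to 0.943), an interval that overlaps that of the hepatocytes. In the adult control the intervals overlapped too, with 614 CPM in empty droplets, while after surgery hepatocytes held 1.66 to 2.40 times the empty level. A Cyp7b1 UMI was found in 0.380% of P14 hepatocytes at 5000 UMIs and, without thinning, in 0 of 80 T or NK barcodes, which allows up to 3.75%. Where the few P14 UMIs came from was not tested.
Cyp7b1 is known in mouse liver as a gene with higher levels in males. Genes read from the sex chromosomes separated P14 from the adults: Xist was at 840 CPM in P14 and at 0 to 0.0744 CPM in the 4 adult libraries, and Ddx3y was at 112 to 140 CPM in the adults and had 0 UMIs in P14. This is a female pattern at P14 and a male pattern in the adults. Of 13 sex-biased liver genes usable at P14, 5 were called higher and 8 lower, against 7.89% and 13.8% of all genes. Sult2a1, a sulfotransferase higher in females, was at 853 CPM against 0 UMIs in the adult control, and Mup20, a male-biased urinary protein, was at 0.557 CPM against 21418. Age and this difference cannot be told apart for any gene compared between P14 and the adults. Among the adults, which shared the sex-chromosome pattern, 7 of 8 usable sex-biased genes were lower at 24 h, 7 at 48 h and 6 at 96 h, against 7.13%, 7.63% and 1.88% of all genes. Elovl3, a male-biased fatty acid elongase, went from 254 CPM in the adult control to 69.2, 53.2 and 50.4 CPM. The part of either pattern in the levels of Cyp7b1 was not tested.

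Of the conjugation pair, Slc27a5, the bile acid ligase, stood at 286 CPM (277 to 295) in the adult control, 99.3 CPM (94.9 to 104) at 24 h, 121 CPM (117 to 126) at 48 h, 211 CPM (204 to 219) at 96 h and 320.1 CPM (316 to 324) at P14. It was 2.88-fold lower (2.73 to 3.04) at 24 h, 2.35-fold lower (2.24 to 2.48) at 48 h and 1.35-fold lower (1.29 to 1.42) at 96 h, and 1.12-fold higher (1.08 to 1.16) at P14. Baat, the transferase that follows it, was at 234 CPM, 146 CPM, 117 CPM, 181 CPM and 45.8 CPM in the same order, from 2429 to 3111 UMIs per library. No neighbours of either gene overlapped. Baat was 1.597-fold lower (1.52 to 1.68) at 24 h, 2.00-fold lower (1.90 to 2.11) at 48 h, 1.29-fold lower (1.22 to 1.36) at 96 h and 5.10-fold lower (4.85 to 5.37) at P14. Both genes thus lay closer to the control at 96 h than at 24 h or 48 h, whereas at P14 they differed. Baat made up 12.5% (12.1% to 12.9%) of the UMIs of the pair there, against 44.97% in the control and 59.6%, 49.0% and 46.2% after surgery. Baat was also a gene with much free RNA. Its hepatocyte level was at 0.716 times the level in empty droplets in the adult control and 0.816 times at P14, and T or NK barcodes had a UMI of it in 39.2% of cases in the adult control against 56.9% of hepatocytes. In the other 4 libraries those shares were 3.81% to 13.8% and 17.2% to 49.3%. In empty droplets the log2 ratios over the control were −1.19, −1.61, −0.88 and −2.52 for Baat and −2.14, −2.41, −1.27 and −0.50 for Slc27a5 at 24 h, 48 h, 96 h and P14, so Slc27a5 stood past 2-fold lower at 96 h and lower at P14 there. Slc27a5 was held by 65.3%, 29.9%, 34.5%, 52.3% and 68.7% of hepatocytes at 5000 UMIs in the adult control, at 24 h, 48 h, 96 h and P14, and by 29.5%, 2.73%, 0.952%, 8.57% and 8.75% of unthinned T or NK barcodes.

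Nr0b2, the repressor Shp, was nearly level among the adults. It stood at 26.7 CPM (24.0 to 29.7; 356 UMIs) in the adult control, 25.4 CPM (23.2 to 27.8; 496 UMIs) at 24 h, 26.9 CPM (24.8 to 29.3; 561 UMIs) at 48 h and 29.6 CPM (26.8 to 32.7; 398 UMIs) at 96 h, and neighbours in this order overlapped. The 48 h level was 1.01-fold (0.880 to 1.15) that of the control. P14 stood apart at 67.8 CPM (65.8 to 69.8; 4376 UMIs), 2.53-fold higher (2.27 to 2.83). At 5000 UMIs the share of positive hepatocytes was 22.5% at P14 and 8.90% to 10.7% in the adults, where unthinned T or NK barcodes had 1.52% to 5.40%; at P14 these had 2.5% (2 of 80). Empty droplets held Nr0b2 at 79.4 CPM at P14 and 24.4 to 36.9 CPM in the adults, so the step at P14 was seen there too.

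Nr1h4, which encodes the bile acid receptor Fxr, was lowest at 48 h. Its levels were 70.7 CPM (66.3 to 75.4) in the adult control, 59.3 CPM (56.0 to 62.9) at 24 h, 47.8 CPM (44.8 to 50.8) at 48 h, 79.3 CPM (74.6 to 84.2) at 96 h and 67.7 CPM (65.7 to 69.7) at P14. At 48 h it was 1.48-fold lower (1.35 to 1.62) than the control, and from 48 h to 96 h it was 1.66-fold higher (1.52 to 1.81). The intervals of 96 h and the control overlapped, as did those of the control and P14. At 5000 UMIs, 24.4%, 21.6%, 18.1%, 26.3% and 23.1% of hepatocytes held Nr1h4 in the adult control, at 24 h, 48 h, 96 h and P14, and 10.8%, 3.52%, 1.90%, 4.76% and 6.25% of unthinned T or NK barcodes did. Hepatocyte levels were 0.897 to 1.19 times those of empty droplets. Against its receptor, Nr0b2 made up 50.02% of the UMIs of the pair at P14, 36.1% at 48 h, 29.99% at 24 h, 27.4% in the adult control and 27.2% at 96 h.

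The pair that receives Fgf15 was sparse, with 133 to 1171 UMIs per gene and library. Fgfr4, the receptor, stood at 13.6 CPM (11.7 to 15.7) in the adult control, 12.6 CPM (11.1 to 14.3) at 24 h, 14.2 CPM (12.6 to 15.9) at 48 h, 20.8 CPM (18.4 to 23.3) at 96 h and 11.2 CPM (10.4 to 12.1) at P14. Only 96 h lay apart from its neighbour in the order, at 1.53-fold (1.26 to 1.85) over the control. Klb, the co-receptor, was at 9.99 CPM (8.36 to 11.8), 7.43 CPM (6.27 to 8.74), 9.98 CPM (8.67 to 11.4), 13.8 CPM (11.9 to 15.9) and 18.1 CPM (17.1 to 19.2). P14 was 1.82-fold higher (1.52 to 2.19) than the control and 96 h 1.38-fold higher (1.10 to 1.74). The hormone itself, Fgf15, had 0 UMIs in the hepatocytes of every library. At 5000 UMIs, 3.59% to 6.23% of hepatocytes held Fgfr4 and 2.39% to 6.74% held Klb, while unthinned T or NK barcodes held Fgfr4 in at most 2.22% and Klb in at most 0.554%. At P14 the T or NK count was 0 of 80 for both, which allows up to 3.75%. Empty droplets had log2 ratios over the control of −1.07, −1.12, −0.70 and −0.91 for Fgfr4 and −1.48, −1.13, −0.92 and 0.06 for Klb in the order of time, P14 last, so at 96 h both genes lay below the control there and not above it.

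Within a library, hepatocytes were ranked by a zone score, the mean of 8 genes of the central-vein side minus that of 10 genes of the portal side, and cut into terciles; these are ranges of a score and not cell types. From 106 to 396 cells per library lay within 0.1 SD of a boundary. Ranks were made within each library, so the same tercile of different libraries need not be the same zone. Cyp2f2, a portal gene of the score, was at 2443 CPM in the middle tercile of the adult control and 96.1 CPM in that of 48 h. This limits each comparison below with the same tercile of the control. Of genes outside the score, 4 were read as a description only, chosen with earlier results known. Cyp2c37, a pericentral cytochrome, was 35.7-fold higher in the pericentral than the periportal tercile of the adult control, 51.6-fold at 24 h, 18.7-fold at 48 h, 61.2-fold at 96 h and 2.09-fold at P14. Cyp3a11, another pericentral cytochrome, was 10.6-fold higher there in the adult control, 3.57-fold to 4.49-fold after surgery and 1.12-fold at P14. The periportal urea cycle enzymes Arg1 and Cps1 were 1.41-fold to 2.33-fold and 1.29-fold to 1.74-fold higher in the periportal tercile. Both cytochromes thus differed least between the terciles at P14.

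Cyp7a1 was a pericentral gene in all 5 libraries. In the adult control it stood at 3.03 CPM (1.61 to 5.18; 13 UMIs) in the periportal, 12.2 CPM (9.11 to 15.9) in the middle and 49.3 CPM (43.2 to 56.1) in the pericentral tercile. At 24 h the same terciles had 13.2, 36.8 and 70.3 CPM, at 48 h 94.6, 201 and 293 CPM, at 96 h 22.7, 124 and 329.9 CPM, and at P14 23.6, 66.1 and 121 CPM. The levels increased toward the pericentral end each time, with no overlap between terciles. The pericentral tercile was 16.3-fold (9.34 to 31.1) above the periportal one in the adult control, 5.31-fold (4.21 to 6.77) at 24 h, 3.09-fold (2.83 to 3.39) at 48 h, 14.5-fold (11.8 to 18.1) at 96 h and 5.13-fold (4.66 to 5.65) at P14. The gradient was therefore flattest at 48 h, with an interval apart from those of the other libraries, and at 96 h it overlapped that of the control. Among the adults, the ratio of Cyp2c37 was also lowest at 48 h, at 18.7-fold, and that of Cyp3a11 at 96 h, at 3.57-fold. Empty droplets of 48 h held Cyp7a1 at 48.7 CPM, beside 94.6 CPM in the periportal tercile, and free RNA was not subtracted. These are levels at unlike depth: the median empty droplet held 287 UMIs there and the median cell of that tercile 36156 UMIs. Set against the same tercile of the control, 48 h was 31.2-fold higher (18.1 to 59.0) in the periportal, 16.5-fold higher (12.6 to 22.2) in the middle and 5.93-fold higher (5.18 to 6.83) in the pericentral tercile. At 96 h the corresponding values were 7.50-fold (4.18 to 14.6), 10.2-fold (7.70 to 13.8) and 6.69-fold (5.82 to 7.71), whose first and last intervals overlapped. Median depth differed little between terciles of a library, except at 96 h, where it was 19123 UMIs in the periportal and 26118 UMIs in the pericentral tercile.

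**Figure D4:**
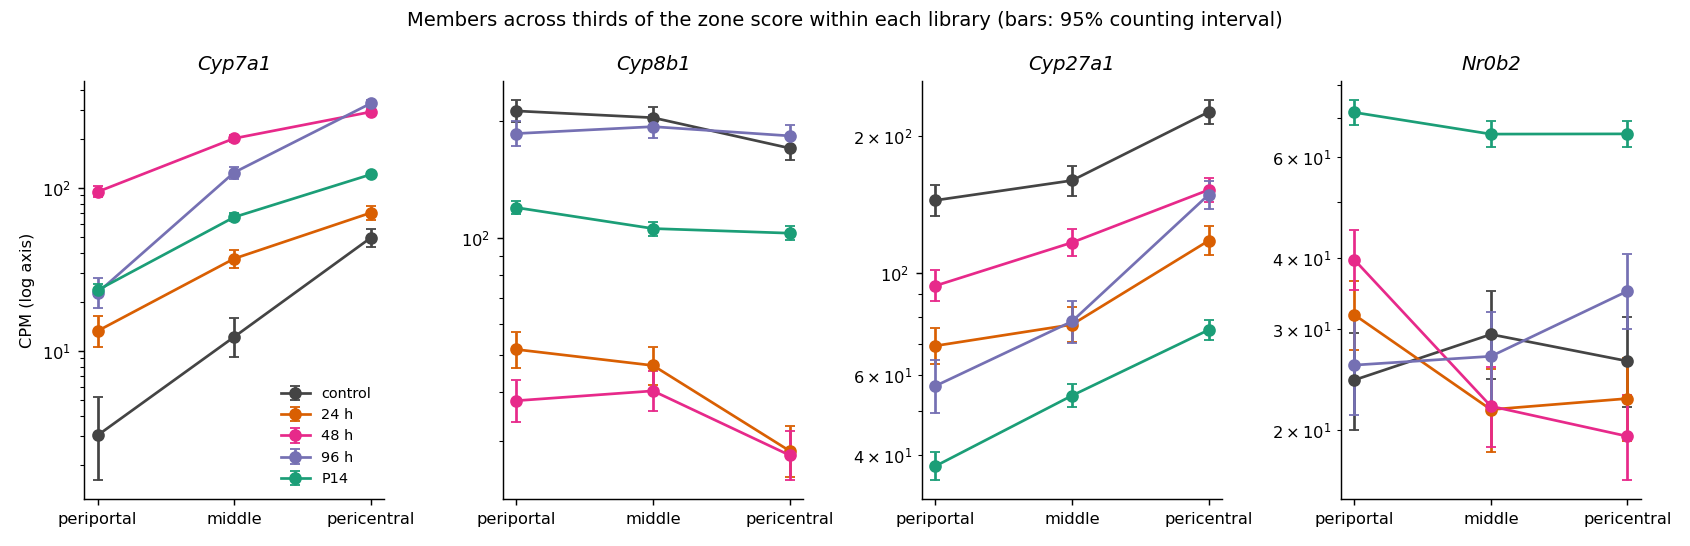
CPM (log axis) of Cyp7a1, Cyp8b1, Cyp27a1 and Nr0b2 in terciles of the zone score (periportal, middle, pericentral) within each of the 5 libraries (colours), with 95% counting intervals. Cyp7a1 increases toward the pericentral end in each library and is flattest at 48 h, Cyp27a1 does so less steeply, and Nr0b2 slopes the other way at 48 h.

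Cyp7b1 was slightly higher pericentrally in the adults, by 1.06-fold (1.01 to 1.12) in the control, 1.139-fold at 24 h, 1.11-fold at 48 h and 1.40-fold (1.25 to 1.57) at 96 h. At P14 its ratio was 5.74-fold (1.96 to 22.8), from 4 UMIs in the periportal, 12 in the middle and 23 in the pericentral tercile. Cyp27a1 was higher in the pericentral tercile throughout, by 1.56-fold (1.41 to 1.73) in the adult control, 1.70-fold at 24 h, 1.62-fold at 48 h, 2.62-fold (2.25 to 3.05) at 96 h and 1.99-fold at P14. Cyp8b1 leaned to the periportal side, by 1.25-fold (1.13 to 1.37) in the adult control, 1.83-fold (1.52 to 2.20) at 24 h, 1.38-fold at 48 h and 1.16-fold at P14, while at 96 h the interval covered 1. Its drop was seen in every tercile: 4.12-fold to 6.03-fold lower than the same tercile of the control at 24 h and 5.06-fold to 6.19-fold lower at 48 h. Slc27a5 was slightly higher periportally in the adults, by 1.11-fold to 1.24-fold, and slightly higher pericentrally at P14, by 1.21-fold (1.17 to 1.25). Nr0b2 showed no gradient beyond counting error in the adult control, at 1.08-fold (0.825 to 1.41). It was 1.40-fold higher (1.13 to 1.75) periportally at 24 h and 2.03-fold higher (1.65 to 2.52) at 48 h, from 39.6 CPM in the periportal to 19.5 CPM in the pericentral tercile, and 1.35-fold higher (1.05 to 1.73) pericentrally at 96 h. So the level total of Nr0b2 at 48 h covered opposite directions: against the same tercile of the control it was 1.62-fold (1.29 to 2.05) in the periportal, 0.749-fold (0.589 to 0.954) in the middle and 0.739-fold (0.575 to 0.951) in the pericentral tercile. All 3 intervals left out 1. For Klb the interval between the outer terciles covered 1 in all 5 libraries. Fgfr4 was 1.38-fold to 1.64-fold higher periportally after surgery, with intervals that covered 1 in the adult control and at P14. Baat was 1.12-fold to 1.23-fold higher periportally except at 96 h, where the interval covered 1.

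Cell division was compared within a library, between hepatocytes with at least 3 mitosis genes at 5000 UMIs (cycling) and those with 0 mitosis genes and at most 1 replication gene. There were 155 cycling and 401 non-cycling cells at 24 h, 298 and 202 at 48 h, 76 and 532 at 96 h, and 249 and 1343 at P14; the adult control had 5 cycling cells and is left out. Cyp8b1 was lower in cycling cells in each of the 4 libraries, at 0.364 times (0.274 to 0.476) the non-cycling level at 24 h, 0.496 times (0.413 to 0.595) at 48 h, 0.652 times (0.561 to 0.754) at 96 h and 0.608 times (0.555 to 0.665) at P14. It was also lower within each tercile measured, except the pericentral tercile of 48 h, at 0.817 times (0.570 to 1.18), where the interval covered 1. Cyp7a1 was at 0.829 times (0.626 to 1.09) at 24 h, 0.729 times (0.677 to 0.786) at 48 h, 1.45 times (1.28 to 1.64) at 96 h and 0.593 times (0.529 to 0.664) at P14, so that 96 h alone had more in cycling cells. At 96 h, however, 20.2% of pericentral and 1.56% of periportal hepatocytes were mitosis-positive. Within the pericentral tercile of 96 h, cycling cells had 0.821 times (0.719 to 0.935) the Cyp7a1 level of non-cycling cells, and within the middle tercile 0.327 times (0.185 to 0.538) from 20 cycling cells. The periportal tercile had too few cycling cells for a value. The pooled direction at 96 h was thus the reverse of that within the terciles measured. At 24 h the middle tercile had 0.293 times (0.133 to 0.577), while the intervals of the periportal tercile, at 0.325 times (0.0641 to 1.02), and the pericentral one, at 0.879 times (0.626 to 1.23), covered 1. At P14 all 3 terciles were lower, at 0.445, 0.511 and 0.848 times from the periportal to the pericentral end. At 48 h the same ratio was 0.445 (0.351 to 0.563) in the periportal, 0.603 (0.532 to 0.683) in the middle and 0.956 (0.862 to 1.06) in the pericentral tercile, where the interval covered 1.

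**Figure D5:**
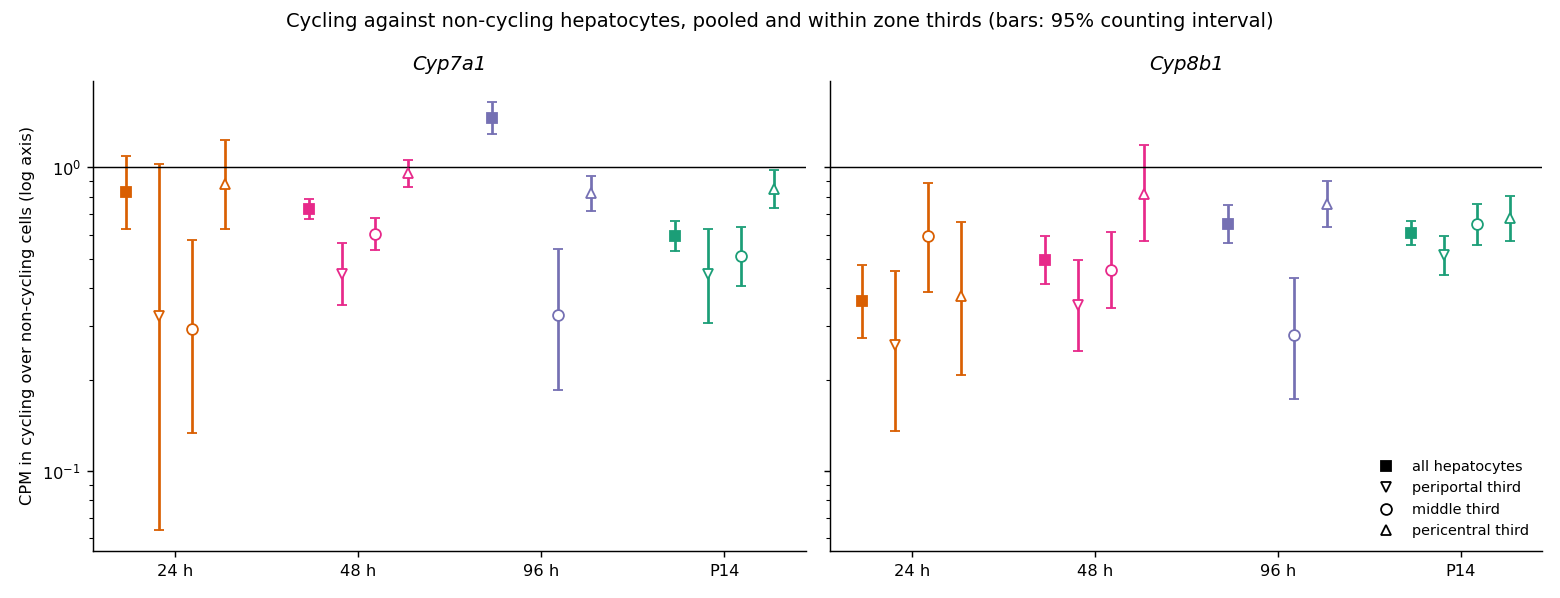
CPM of Cyp7a1 and Cyp8b1 in cycling over non-cycling hepatocytes (log axis; the line marks equal levels) at 24 h, 48 h, 96 h and P14, over all hepatocytes (squares) and within terciles of the zone score (open symbols), with 95% counting intervals. The square of Cyp7a1 at 96 h lies above the line while its 2 tercile symbols lie below it; terciles with fewer than 20 cycling cells are not drawn.

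Cyp7b1 was lower in cycling cells at 24 h, at 0.818 times (0.741 to 0.903) the non-cycling level, and higher at 96 h, at 1.67 times (1.47 to 1.88). Its pooled intervals covered 1 at 48 h and P14, while within the periportal tercile of 48 h the ratio was 0.759 (0.642 to 0.899). Within the pericentral tercile of 96 h the ratio was 1.47 (1.25 to 1.73), and within the middle one 1.33 (0.988 to 1.76). Klb was higher in cycling cells at 48 h, at 1.92 times (1.31 to 2.88), and at P14, at 1.33 times (1.12 to 1.57), while Nr1h4 was lower at 24 h (0.645 times), 48 h (0.664 times) and P14 (0.825 times). For Klb at 24 h and 96 h, and Nr1h4 at 96 h, the intervals covered 1. Slc27a5 was lower in cycling cells in each of the 4 libraries, at 0.713 to 0.904 times. Cyp27a1 was lower at 48 h (0.712 times) and P14 (0.742 times), Nr0b2 at 24 h (0.660 times) and Baat at 24 h (0.815 times), while Baat was higher at 48 h, at 1.15 times (1.04 to 1.27). The other pooled intervals of these 3 genes, and all 4 of Fgfr4, covered 1. For Cyp27a1 at 96 h, cycling cells were lower within both terciles measured, at 0.709 times (0.583 to 0.857) in the pericentral and 0.538 times (0.309 to 0.877) in the middle one, while the pooled ratio was 1.05 (0.881 to 1.23). Cycling cells were deeper than non-cycling ones after surgery, with median depths of 24811 and 19756 UMIs at 24 h, 41899.5 and 32631 UMIs at 48 h, and 28953 and 21149.5 UMIs at 96 h. Hepatocytes in which Cyp7a1 was detected at 5000 UMIs were also compared with the rest for the other 9 members in the 5 libraries. The intervals of the shares overlapped in 44 of 45 comparisons. Over all genes detected in at least 5% of a library's thinned hepatocytes they were apart for 1.55% to 3.98%, so 1 comparison apart is near that background. It was Cyp8b1 at 48 h, detected in 17.6% (13.4% to 22.5%) of Cyp7a1-positive cells and 9.30% (6.73% to 12.5%) of the others.

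The genes with profiles most like Cyp7a1 over the 5 libraries, by Euclidean distance between centred log2(CPM + 1) values among 6055 genes, were Ucp2, Map4k4, H1fx, Ccnb2 and Cdkn3, at distances of 0.834 to 1.29. Ucp2, a mitochondrial carrier, had 5.48, 10.9, 34.6, 28.9 and 10.2 CPM in the adult control, at 24 h, 48 h, 96 h and P14. Ccnb2 and Cdkn3 act in the cell cycle. For Nr0b2 they were Fbp1, Bsg, Apof, Psmb10 and Dcaf6, at distances of 0.119 to 0.309. Fbp1, a gluconeogenic enzyme, had 729, 688, 759, 866 and 1752 CPM, with the same step at P14.

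Other enzymes and carriers of the pathway were described from lists. Their counts stand beside the shares of all genes called, which were 8.51% higher and 7.13% lower at 24 h, 8.3% and 7.63% at 48 h, 4.07% and 1.88% at 96 h, and 7.89% and 13.8% at P14. Of 14 usable further enzymes of bile acid synthesis, 0 were called higher and 3 lower at 24 h, 0 and 3 at 48 h, 1 and 0 at 96 h, and 3 and 1 at P14. The 3 lower ones were the same at both times: Slc27a2, an acyl-CoA synthetase (494, 172, 199, 395 and 659 CPM in the adult control, at 24 h, 48 h, 96 h and P14), Scp2, the peroxisomal thiolase and carrier (6482, 3023, 2859, 4677 and 3227 CPM), and Abcd3, a peroxisomal importer (542, 266, 244, 506 and 283 CPM). Fdx1, the ferredoxin that passes electrons to Cyp27a1, was called at 96 h, at 386 against 190 CPM. At P14, Cyp39a1, which hydroxylates 24-hydroxycholesterol, was at 92.4 against 18.5 CPM, Por, the reductase that serves microsomal cytochromes, at 346 against 149 CPM, and Akr1d1, the 5-beta reductase, at 280 against 132 CPM.

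Of 19 nuclear receptors and cofactors, 0 were higher and 2 lower at 24 h, 0 and 3 at 48 h, 0 and 0 at 96 h, and 2 and 2 at P14. Apart from 48 h, these counts are near the shares of all genes given above. At 48 h the median log2 ratio of the list was −0.47, against −0.08 over all genes. Ppara, a fatty acid receptor, stood at 96.3, 41.2, 35.9, 63.5 and 151 CPM in the adult control, at 24 h, 48 h, 96 h and P14. Mafg, a repressor raised by Fxr, stood at 76.7, 33.9, 27.3, 51.0 and 47.6 CPM, and the pioneer factor Foxa2 at 83.6, 56.6, 33.9, 98.1 and 63.3 CPM. Nr5a2, whose product Lrh-1 drives Cyp7a1 and Cyp8b1, was called at P14, at 49.2 against 110 CPM, as was Nr1i3, the receptor Car, at 155 against 47.7 CPM. The log2 ratio of Nr5a2 was −1.14, so the upward shift of 0.29 from TMM factors at P14 would bring it within 2-fold. Of 11 usable transporters and Fxr targets, 1 was higher and 4 lower at 24 h, 0 and 4 at 48 h, and 1 and 0 at 96 h; at P14, of 12, 4 were higher and 2 lower. Abcg8, a sterol exporter, stood at 46.6, 13.3, 10.5, 38.3 and 117 CPM, and Slc10a1, the main uptake carrier of bile acids, at 634, 265, 355, 724 and 537 CPM. Abcb11, the bile salt export pump, stood at 287, 189, 132, 241 and 198 CPM. Slco1a4, another uptake carrier, was called higher at 24 h (57.2 against 21.7 CPM), 96 h (72.9) and P14 (90.6). Slc51b, of the same list, stood at 0.225, 3.33, 2.16, 1.86 and 7.79 CPM, from 3, 65, 45, 25 and 503 UMIs. Its log2 ratios over the control were 1.82, 1.37, 1.22 and 2.84, all upward. Its adult levels lay below the minimum for the counts, so it was counted at P14 only. Of 8 usable genes of the Fgf15 pathway, 1 was higher and 1 lower at 24 h, 0 and 3 at 48 h, 0 and 1 at 96 h, and 0 and 3 at P14. With 8 genes, 1 call in each direction at 24 h is near the shares of all genes. Spry4, an inhibitor induced by Fgf signals, stood at 15.5, 2.87, 1.06, 4.32 and 16.1 CPM, and Dusp6, a phosphatase of that kind, at 28.9, 67.5, 27.2, 38.5 and 24.99 CPM.

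Some broader programmes also moved in these libraries, though not at every time at which members did. Of all genes, 8.51% were called higher and 7.13% lower at 24 h, and 8.3% and 7.63% at 48 h. The shares were 4.07% and 1.88% at 96 h, and 7.89% and 13.8% at P14. Of 17 usable clock genes and clock outputs, 1 was higher and 8 lower at 24 h, 1 and 10 at 48 h, and 2 and 7 at P14, while at 96 h 0 of 16 were called in either direction. Dbp, a clock-driven factor that binds the D-box, stood at 152, 9.07, 3.22, 119 and 13.1 CPM in the adult control, at 24 h, 48 h, 96 h and P14. Cyp7a1 is known to cycle over the day, and the hour at which each liver was taken is not given in the sources used here. Of 13 usable inflammation and acute phase genes, 7 were higher and 0 lower at 24 h, and 0 and 5 at P14. Of 12 usable, 8 were higher and 1 lower at 48 h, and 3 and 2 at 96 h. Saa2, an acute phase protein, stood at 1365, 20968, 31492, 856 and 5.44 CPM. Among other cell types, neutrophil markers in the hepatocyte barcodes summed to 10.7, 101, 188, 21.2 and 27.1 CPM, with all 4 markers above 0, T or NK markers to 30.5, 6.61, 22.4, 8.71 and 3.67 CPM, and erythroid markers to 669, 475, 697, 298 and 108 CPM. The 5 cholangiocyte markers summed to 35.6, 102, 44.9, 188 and 46.8 CPM, highest at 96 h, with 3, 3, 2, 2 and 0 of them at 0 UMIs. The defining marker Krt19 was among those at 0 in all 4 adult libraries. Stellate markers summed to 4.96, 9.99, 3.84, 11.4 and 46.2 CPM, and B cell, macrophage or monocyte and endothelial markers to at most 4.61, 10.99 and 13.97 CPM. The part of the clock, the acute phase and other cells in the members' levels was not tested.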

How the data were processed

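Per the file headers and the submitters' processing notes, the deposited matrices hold whole UMI counts per gene and barcode, without normalization, written by Cell Ranger (matrix software version 3.0.2) after bcl2fastq 2.17.1.14 on mm10; the notes also name Seurat 3.1. Of 31053 identifiers, 31011 were in GENCODE M21 (GRCm38, the assembly behind mm10). Counts of the hepatocyte gate were summed per library with Python 3.11.15, numpy 2.4.6 and scipy 1.17.1. Ratios used a pseudocount of 1 CPM and genes with 5 CPM or more in 1 or both libraries. Intervals are exact Poisson for counts, the conditional binomial for ratios and Clopper-Pearson for shares. T or NK barcodes had at least 1000 UMIs, under 30% mitochondrial UMIs and 3 markers, and were not thinned. Doublets were kept; removing the highest Scrublet scores (scanpy 1.11.5) was an alternative, as were TMM factors (edgeR 4.0.16), other gates, other denominators, empty droplets and barcodes under 5% mitochondrial UMIs. Named genes were all members and, per list and comparison, at most 4 genes called with at least 10 CPM, of which the text gives a selection, and the 5 nearest profiles of Cyp7a1 and Nr0b2. Fgf15, Slc51b, Krt19, Arg1, Cps1, Cyp2c37 and Cyp3a11 fall outside this rule and were chosen after their values were seen. Ratio and thinning steps were tested on simulated data. The members and lists were chosen with earlier results of these data known. The deposited tables hold no other columns of samples.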

Additional observations from a re-analysis of the deposited data

How the results depend on the processing

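Of 40 member ratios over the adult control, 15 were called, and 11 of these were called in all 15 other settings; no called ratio changed direction. The calls lost were Cyp27a1 at 24 h in 7 settings, Slc27a5 at 48 h in cells with at least 3% Alb, Apoa1 and Ttr (−0.98), Cyp7a1 at P14 in empty droplets (0.83) and Nr0b2 at P14 in barcodes under 5% mitochondrial UMIs (0.92). In 17 ratios not called, some setting passed 2-fold. In empty droplets the members' median was −1.34 at 24 h, −1.37 at 48 h, −0.90 at 96 h and −0.70 at P14, with 7, 8, 5 and 5 called; over all genes there the medians were −0.22, −0.20, −0.37 and −0.28 and 32.8%, 29.9%, 26.05% and 28.01% were called in either direction. Low-mitochondrial barcodes gave −1.32, −1.20, −0.88 and −0.88, with 6, 7, 5 and 4 called; over all genes the medians were −0.72, −0.66, −0.46 and −0.11 and 45.6%, 43.0%, 27.7% and 30.04% were called. The median over all genes was thus below 0 as well in both settings. Hepatocytes of 10% to 20% mitochondrial UMIs, only 53 to 933 cells per library, gave −0.99 at 24 h and −0.25 at 96 h, against −0.03 and −0.04 over all genes. Members of at least 20 CPM gave −0.84 at 24 h, −0.78 at 48 h and −0.44 at P14. The 3% gate gave −0.41 at 48 h, and non-cycling hepatocytes, an alternative chosen after seeing the data, −0.40. TMM factors shifted P14 by 0.29 (log2) and gave a median of 0.11 there, with 6 called, against 0.02 and 20.5% over all genes. The cause was not tested. No paired analysis was possible because each group is 1 library, and none could be left out. Fgfr4 and Klb rest on few UMIs, which limits their precision.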
